A study of Mus musculus with 39 samples.

Results

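The genes described here are 10 enzymes of bile acid synthesis and conjugation, Cyp7a1, Cyp8b1, Cyp27a1, Cyp7b1, Cyp2c70, Hsd3b7, Akr1d1, Amacr, Baat and Slc27a5. They were chosen by name for their place in the pathway, from 55416 genes in the count table, and all 10 passed the filter on low counts that left 15296 genes for testing. Their transcripts were measured by RNA sequencing in the livers of 39 male mice, with 1 library per mouse, in 4 groups. CD163 knockout mice on Western diet numbered 15, wildtype mice on Western diet 15, knockout mice on chow 4 and wildtype mice on chow 5. Western diet came with fructose in the drinking water, and chow came with plain water. Both diets began at 6 weeks of age and lasted 8 weeks. The parents were heterozygous for the CD163tm1(KOMP)Vlcg allele on the C57BL/6NTac background, so the knockout and wildtype mice were littermates. CD163 is a scavenger receptor on macrophages that clears haemoglobin bound to haptoglobin, whereas the enzymes described here are made mostly by hepatocytes.

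Bile acids are made from cholesterol in hepatocytes, which is the main way in which the body disposes of cholesterol. In the classic route Cyp7a1 takes the first and rate-limiting step, and Cyp8b1 adds the hydroxyl group that turns the product into cholic acid. In the alternative route Cyp27a1 oxidises the side chain first and Cyp7b1 then adds a ring hydroxyl group. Hsd3b7 and Akr1d1 rebuild the steroid rings in both routes, and Amacr inverts a carbon of the side chain so that peroxisomes can shorten it. Mice also have Cyp2c70, which makes the muricholic acids that human bile lacks. Slc27a5 couples bile acids to coenzyme A and Baat then joins them to taurine or glycine. Bile acids restrain Cyp7a1 and Cyp8b1 through the receptor Nr1h4 (FXR) and its target Nr0b2 (SHP), and through Fgfr4 and Klb, which receive a hormone from the intestine.

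Promoter sequences from RefSeq, in the mouse assembly GRCm38.p6, were held for 5 of the 10 genes, Cyp8b1, Cyp27a1, Cyp2c70, Hsd3b7 and Akr1d1. Those of Cyp8b1 and Cyp2c70 are shown because these genes moved in opposite directions among wildtype mice on Western diet, and that of Cyp27a1 because it was lower on Western diet once 4 libraries were left out. Each runs 5′ to 3′ on the gene's own strand over the 250 bases before the start that RefSeq gives, which is chr9:121916306-121916555 on the minus strand for Cyp8b1, chr19:40187287-40187536 on the minus strand for Cyp2c70 and chr1:74713285-74713534 on the plus strand for Cyp27a1. In GENCODE M21 the nearest transcript start was the same base for Cyp8b1 and Cyp2c70, whereas that of Cyp27a1 lay 39 bases farther into the gene, so its positions count from the RefSeq start. Capitals mark the letters AGGTCA (a half-site of nuclear receptors), TATAAA (the TATA box) and CCAAT, each on either strand.
Cyp8b1: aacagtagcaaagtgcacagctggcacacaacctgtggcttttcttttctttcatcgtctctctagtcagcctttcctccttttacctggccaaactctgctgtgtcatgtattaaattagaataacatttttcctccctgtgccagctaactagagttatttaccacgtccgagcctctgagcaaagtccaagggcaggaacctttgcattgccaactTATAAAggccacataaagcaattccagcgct
Cyp2c70: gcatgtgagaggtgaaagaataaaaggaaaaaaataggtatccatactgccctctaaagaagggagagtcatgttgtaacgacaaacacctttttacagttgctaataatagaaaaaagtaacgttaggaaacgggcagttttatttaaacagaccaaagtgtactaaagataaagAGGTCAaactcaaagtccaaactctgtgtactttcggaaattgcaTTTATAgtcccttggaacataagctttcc
Cyp27a1: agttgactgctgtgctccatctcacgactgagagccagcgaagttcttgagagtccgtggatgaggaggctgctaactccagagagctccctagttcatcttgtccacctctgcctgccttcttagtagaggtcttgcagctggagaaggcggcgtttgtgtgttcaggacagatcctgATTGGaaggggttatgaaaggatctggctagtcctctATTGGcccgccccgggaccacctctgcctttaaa
Cyp8b1 held TATAAA starting 31 bases before the start, and Cyp2c70 held it on the other strand 29 bases before the start. Among the 3, AGGTCA occurred in the window of Cyp2c70, 74 bases before the start. Cyp27a1 held neither of them but had CCAAT on the other strand 71 and 34 bases before the start. Of 32851 promoter windows of the same length, 14% held AGGTCA, 12.4% held TATAAA and 33.8% held CCAAT, so none of these letters is rare. A direct repeat of that half-site with 1 base between the copies, which occurred in 0.0335% of the windows, and an inverted repeat with 1 base between them, which occurred in 0.00609%, were in none of the 5 windows searched.

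Libraries held 8578865 to 30438808 counts in total, and the median library 14573193. Cd163, the targeted gene, was at 0.355 ± 0.209 CPM (counts scaled to the size of the library, SD, n = 15) in knockout mice and 8.31 ± 4.27 CPM (n = 15) in wildtype mice on Western diet. All 7 hepatocyte markers were measured in every group, with a mean log2 CPM of 11.6 to 12.1 in Western diet livers and 11.7 to 12.4 in chow livers. Although the genotype labels held for Cd163, 4 libraries grouped with the opposite diet by their cholesterol synthesis genes, which cholesterol is known to repress. Over 18 such genes the mean log2 CPM was 7.08 in knockout Western diet M and 7.09 in wildtype Western diet A, against 4.48 to 6.17 in the other 28 Western diet livers. It was 5.10 in knockout chow D and 5.14 in wildtype chow A, against 6.58 to 7.13 in the other 7 chow livers. These 4 libraries were kept under their labels, and the diet effect averaged over the genotypes is also given without them, an alternative chosen after the data were seen. Because they were picked by genes that respond to diet, leaving them out favours larger diet effects. The genes called rose from 2234 to 4622, so p values without the 4 libraries are a description. The closest pair of libraries within a group, wildtype Western diet L and M, differed by a chi-square of 3.77 per gene, where sampling noise gives 1. The next closest pair was at 9.63 and the median of all pairs at 50.4, so L and M were unusually alike. Both were kept and count as separate livers in the relations below, which were not checked for this pair.

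Per kilobase of exon, the conjugating enzyme Slc27a5 and the P450s Cyp27a1 and Cyp2c70 were the most abundant of the 10 transcripts on Western diet, and Hsd3b7 was the scarcest. Mean CPM per kilobase is given here for the 30 Western diet livers and then for the 9 chow livers, with exon lengths from the GENCODE M21 annotation. Slc27a5 (ENSMUSG00000030382) stood at 322 ± 46.8 and 292 ± 46.4, Cyp27a1 (ENSMUSG00000026170) at 289 ± 45.9 and 328 ± 56.0, and Cyp2c70 (ENSMUSG00000060613) at 279 ± 103 and 226 ± 55.4 CPM per kilobase (SD). These genes did not differ from their neighbours in the order beyond their spread. Below them came Cyp8b1 (ENSMUSG00000050445) at 213 ± 65.0 and 254 ± 81.2, Cyp7b1 (ENSMUSG00000039519) at 144 ± 57.4 and 175 ± 47.0, and Baat (ENSMUSG00000039653) at 138 ± 17.9 and 147 ± 17.9 CPM per kilobase. The spreads of Cyp7b1 and Baat overlapped. Amacr (ENSMUSG00000022244) was at 68.4 ± 8.49 and 55.8 ± 6.31, and Akr1d1 (ENSMUSG00000038641) at 34.3 ± 9.78 and 34.6 ± 6.73 CPM per kilobase. The enzyme of the first step, Cyp7a1 (ENSMUSG00000028240), was at 9.17 ± 5.94 and 14.1 ± 7.12, and Hsd3b7 (ENSMUSG00000042289) at 2.78 ± 1.18 and 2.88 ± 1.49 CPM per kilobase.

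The genes also differed in how far they varied from mouse to mouse. Over all 39 livers the highest level of Cyp7a1 was 12.3 times the lowest, that of Hsd3b7 9.93 times, that of Cyp8b1 7.29 times and that of Cyp7b1 5.89 times. Cyp2c70 spanned 4.38-fold and Akr1d1 3.0-fold. Cyp27a1, Slc27a5, Amacr and Baat were the steadiest, spanning 2.06, 1.98, 1.90 and 1.81-fold. The 2 conjugation enzymes and the side chain racemase were thus steadier than the hydroxylases of the rings, as a description of these livers. Hsd3b7 rested on 16 to 238 counts per library, so counting error alone is larger for it than for the others.

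The first question is what Western diet with fructose did to these genes. Amacr rose: it averaged 178 ± 22.1 CPM (SD, n = 30) in Western diet livers and 145 ± 16.4 CPM (n = 9) in chow livers, 1.23-fold higher. It was the 1 gene of the 10 that passed the test when the diet effect was averaged over the genotypes, where 14.6% of all tested genes passed, 7.84% higher and 6.77% lower. A count of 1 of 10 is no more than that background, which was 5.33% without knockout chow B and 22.6% without knockout chow D. Cyp7a1, Cyp27a1 and Cyp8b1 had lower means on Western diet than on chow but did not pass in all 39 livers. At an unadjusted p below 0.05 there were 3 of 10, Cyp7a1, Cyp27a1 and Amacr, where 30.4% of all genes had such a p. With the 4 libraries left out Cyp7a1 and Cyp27a1 fell and Amacr rose, 3 of 10, where 29.9% of all genes passed, again no more than the background. In a whole liver, fewer cells of a type and less RNA per cell cannot be told apart.

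**Figure D1:**
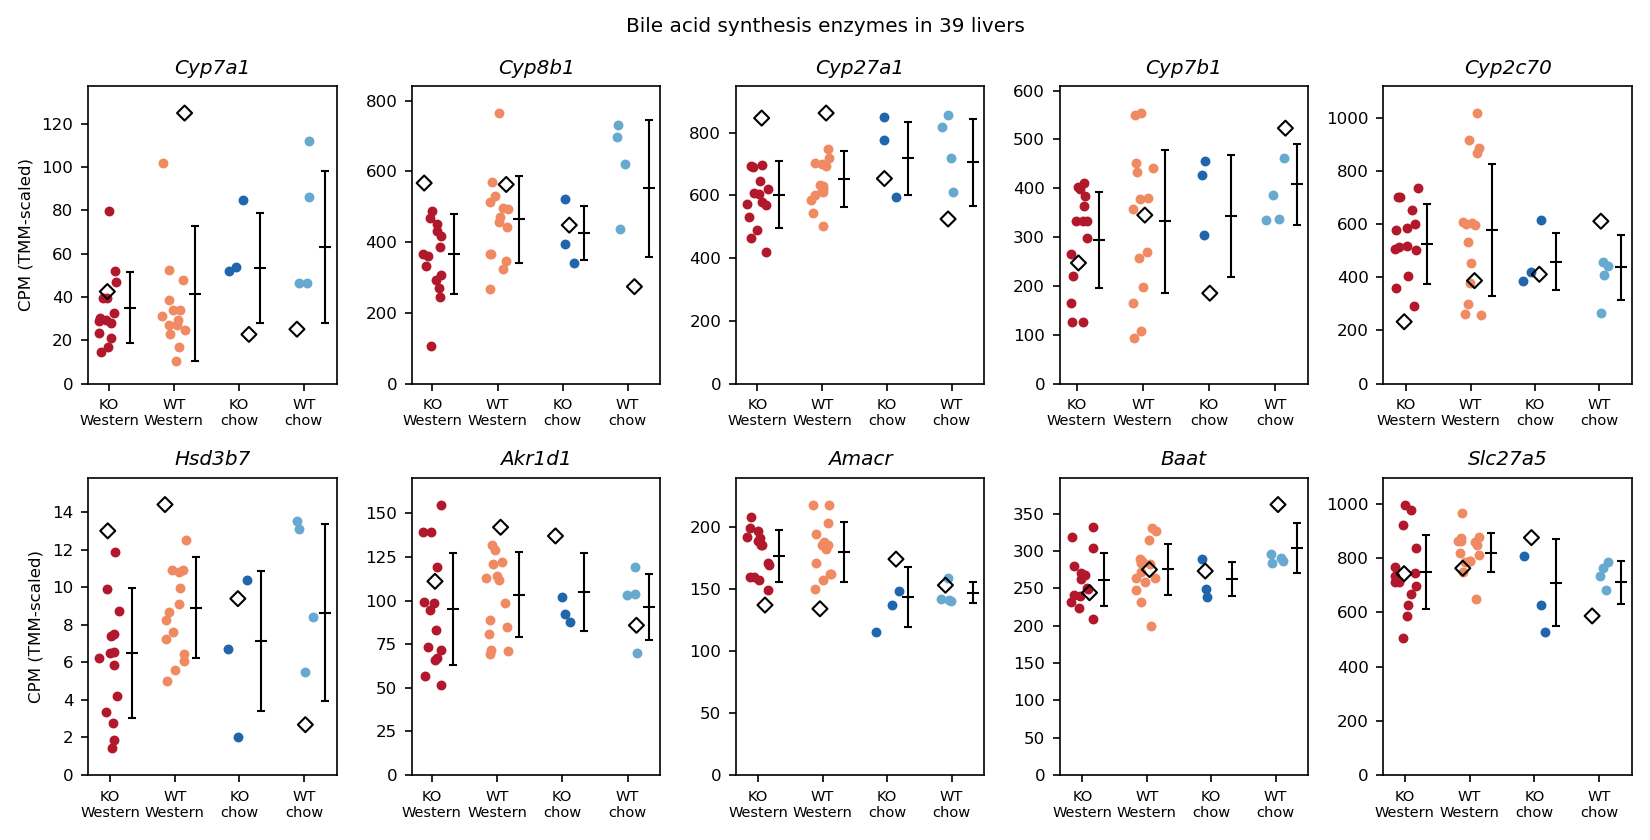
Level in CPM of each of the 10 genes (vertical axes, from 0) in every liver, in knockout and wildtype mice on Western diet and then on chow, with the mean ± SD of each group as a bar. Open diamonds are the 4 libraries that grouped with the opposite diet. Amacr lay between 134 and 218 CPM in Western diet livers and between 115 and 174 CPM in chow livers, and the groups of the other genes overlap as well.

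The first enzyme of the classic route, Cyp7a1, varied most from mouse to mouse and had lower medians on Western diet. In knockout mice on Western diet its lowest, median and highest levels were 14.6, 30.5 and 79.9 CPM, and in wildtype mice on Western diet 10.2, 31.1 and 125 CPM. The chow livers were at 53.8, 51.8, 84.9 and 22.7 CPM in knockout mice and at 25.1, 46.3, 46.3, 112 and 86.2 CPM in wildtype mice. Western diet livers were thus mostly low, 27 of 30 below the chow mean, and the groups overlapped. The 2 low chow livers, at 22.7 and 25.1 CPM, are knockout D and wildtype A, and the high Western diet liver at 125 CPM is wildtype A, all among the 4 libraries. The log2 fold change averaged over the genotypes was -0.60 (SE 0.29, edgeR quasi-likelihood test, adjusted p = 0.154). Without the 4 libraries Cyp7a1 averaged 35.0 ± 19.2 CPM (n = 28) in Western diet livers and 68.7 ± 25.6 CPM (n = 7) in chow livers, and 22 of 28 were below every chow liver. Its log2 fold change came to -0.94 (SE 0.27, edgeR adjusted p = 0.00922). With limma voom and sample quality weights on all 39 libraries it was -0.79 (adjusted p = 0.0302), where 23.9% of all genes passed. RLE scaling, no filter on low counts, a block for the replicate letter, the library number as a covariate and DESeq2 did not call Cyp7a1.

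Cyp8b1, which directs synthesis to cholic acid, ranged over 105 to 765 CPM in Western diet livers, with medians of 367 in knockout and 470 in wildtype mice, and over 274 to 731 CPM in chow livers, with a median of 448. Its values overlapped widely, with 4 of 30 Western diet livers below all chow livers and 1 above all of them. The log2 fold change came to -0.23 (SE 0.17, edgeR adjusted p = 0.342), and -0.33 (SE 0.17, adjusted p = 0.139) without the 4 libraries.

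In the alternative route, Cyp27a1 had a small difference between the diets. In knockout mice on Western diet the median was 604 CPM and 14 of 15 livers lay between 465 and 847 CPM, with knockout F below them. In wildtype mice on Western diet its lowest, median and highest levels were 503, 630 and 863 CPM. The chow livers were at 776, 851, 594 and 654 CPM in knockout mice and at 525, 857, 721, 818 and 610 CPM in wildtype mice. Both Western diet maxima belong to the 4 libraries, knockout M and wildtype A, and so does the lowest chow liver, wildtype A. The log2 fold change came to -0.19 (SE 0.09, edgeR adjusted p = 0.149). It was -0.28 (SE 0.08, adjusted p = 0.0108) without the 4 libraries, with 611 ± 81.0 CPM in 28 Western diet livers and 747 ± 109 CPM in 7 chow livers. With limma voom on all 39 libraries it was -0.23 (adjusted p = 0.0336), where 23.9% of all genes passed. The other settings named for Cyp7a1 did not call Cyp27a1. Cyp7b1, the second enzyme of this route, was at 313 ± 124 CPM in Western diet livers and 380 ± 102 CPM in chow livers, a log2 fold change of -0.26 (SE 0.22, edgeR adjusted p = 0.441), and -0.29 (SE 0.25, adjusted p = 0.398) without the 4 libraries. It spread far more than Cyp27a1, and its values overlapped.

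Cyp2c70, the muricholic acid enzyme of mice, had a higher mean on Western diet, 553 ± 204 CPM against 447 ± 110 CPM on chow. The log2 fold change came to 0.30 (SE 0.20, edgeR adjusted p = 0.302), and 0.41 (SE 0.21, adjusted p = 0.140) without the 4 libraries. Of 30 Western diet livers, 8 were above all 9 chow livers and 3 were below all of them. Because 30 livers tend to span a wider range than 9, these counts do not show whether the spread differed between the diets.

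Neither ring enzyme passed the test. Hsd3b7 was at 7.69 ± 3.28 CPM in Western diet livers and 7.97 ± 4.12 CPM in chow livers, with a 95% interval of -0.58 to 0.48 for the log2 fold change. Akr1d1 was at 99.2 ± 28.3 CPM in Western diet livers and 100 ± 19.5 CPM in chow livers, with an interval of -0.32 to 0.28. As folds, these intervals run from 0.668 to 1.40 for Hsd3b7 and from 0.803 to 1.21 for Akr1d1. Leaving out the 4 libraries gave log2 fold changes of -0.16 (SE 0.27, edgeR adjusted p = 0.694) for Hsd3b7 and 0.02 (SE 0.16, adjusted p = 0.925) for Akr1d1.

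Amacr, the racemase of the side chain, had narrow groups. In knockout mice on Western diet its lowest, median and highest levels were 137, 185 and 208 CPM, and in wildtype mice on Western diet 134, 185 and 218 CPM. The chow livers were at 148, 115, 137 and 174 CPM in knockout mice and at 153, 142, 141, 159 and 140 CPM in wildtype mice. Of 30 Western diet livers, 28 were above the chow mean and 17 above every chow liver. The lowest Western diet liver of each genotype and the highest chow liver, knockout D, are among the 4 libraries. The log2 fold change averaged over genotypes was 0.30 (SE 0.07, edgeR adjusted p = 0.0068). It held in 38 of 39 fits that left out 1 library each, and was 0.25 (adjusted p = 0.0509) without knockout chow B. Without the 4 libraries it was 0.39 (SE 0.07, adjusted p = 7.9e-05), and 24 of 28 Western diet livers were above all 7 chow livers.

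Neither conjugation enzyme passed the test. Slc27a5, which forms the coenzyme A thioester, was at 785 ± 114 CPM in Western diet livers and 711 ± 113 CPM in chow livers, a log2 fold change of 0.14 (SE 0.08, edgeR adjusted p = 0.255). Baat, the amino acid transferase, was at 268 ± 34.7 CPM in Western diet livers and 285 ± 34.8 CPM in chow livers, with a 95% interval of -0.22 to 0.07 for the log2 fold change. A change of Baat beyond 0.862-fold or 1.05-fold is outside that interval. Leaving out the 4 libraries gave log2 fold changes of 0.19 (SE 0.09, edgeR adjusted p = 0.126) for Slc27a5 and -0.01 (SE 0.08, adjusted p = 0.919) for Baat.

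**Figure D2:**
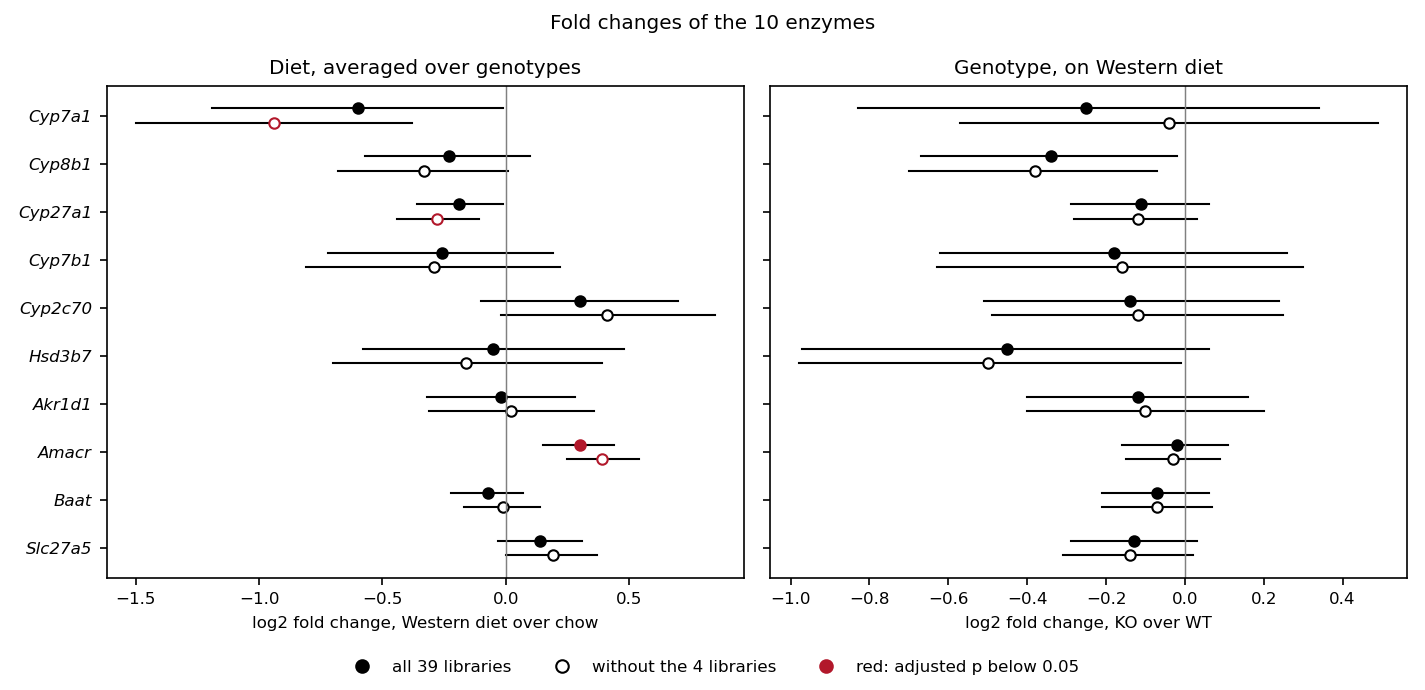
Log2 fold changes of the 10 genes (horizontal axes) for Western diet over chow averaged over the genotypes, on the left, and for knockout over wildtype on Western diet, on the right, from the edgeR fit. Points have 95% intervals, filled with all 39 libraries and open without the 4, and are red where the adjusted p was below 0.05. Amacr is red in both fits on the left, Cyp7a1 and Cyp27a1 are red there without the 4 libraries, and no point on the right is red.

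Within each genotype alone the diet effect was not called for any of the 10 genes. In knockout mice the count was 0 of 10, where 0.00654% of all genes passed, and in wildtype mice it was 0 of 10, where 1.39% passed. With 1 library left out, the share of all genes that passed reached 9.06% in knockout mice, without knockout chow D, and lay between 0% without wildtype chow B and 3.64% without wildtype chow A in wildtype mice. DESeq2 also called 0 in both genotypes, where it called 1.5% of all genes in knockout and 3.37% in wildtype mice. By limma voom Amacr was called in both, where 5.36% of all genes in knockout and 6.83% in wildtype mice were called. Amacr was the 1 gene with an unadjusted edgeR p below 0.05 in each. Of all genes, 19.2% in knockout and 17.2% in wildtype mice had such a p. The log2 fold change of Amacr was 0.30 (SE 0.11, edgeR adjusted p = 0.146) in knockout mice and 0.29 (SE 0.10, adjusted p = 0.113) in wildtype mice. Single libraries decided these calls. Amacr passed in knockout mice without knockout chow D (adjusted p = 0.026), and in wildtype mice without wildtype Western diet A (adjusted p = 0.0493). With all 4 left out Amacr rose in knockout mice, by 0.46 (SE 0.11, edgeR adjusted p = 0.00361) where 17.2% of genes passed, and in wildtype mice, by 0.33 (SE 0.09, adjusted p = 0.0213) where 8.66% passed. With all libraries, Amacr in knockout mice was at 137 to 208 CPM on Western diet and 115 to 174 CPM on chow. Without the 4, the 14 Western diet livers were at 149 to 208 CPM and the 3 chow livers at 115 to 148 CPM. The share of all genes whose groups part in this way was not counted. Cyp7a1 then had log2 fold changes of -0.85 (SE 0.41, adjusted p = 0.147) in knockout mice and -1.03 (SE 0.36, adjusted p = 0.0717) in wildtype mice, neither of which passed.

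Other genes of the pathway rose on Western diet, most of them enzymes of peroxisomes. The list holds 10 genes of side chain oxidation and of minor routes, of which 9 were tested and Ch25h was too low to test. Averaged over the genotypes, 5 of 9 rose and 1 fell, against the 14.6% of all genes that passed, and the median log2 fold change came to 0.33 against 0.00 over all genes. Within each genotype alone 0 of 9 passed, where 1.39% of all genes passed in wildtype and 0.00654% in knockout mice. The 5 that rose are known from peroxisomes, where Amacr also acts. Slc27a2, an acyl-CoA synthetase for very long chains and bile acid precursors, ranged over 901 to 2140 CPM with a median of 1600 in Western diet livers, against 898 to 1730 CPM with a median of 953 in chow livers. Its log2 fold change came to 0.51 (SE 0.12, edgeR adjusted p = 0.00439). Scp2, the thiolase and sterol carrier that completes side chain shortening, ranged over 2330 to 4820 CPM with a median of 3640 in Western diet livers, against 2140 to 3620 CPM with a median of 2540 in chow livers (log2 fold change 0.43, SE 0.10, adjusted p = 0.00459). Hsd17b4, the bifunctional enzyme of peroxisomes, had medians of 621 CPM in Western diet livers and 447 CPM in chow livers (log2 fold change 0.40, SE 0.10, adjusted p = 0.00784). Acox2, the oxidase for branched side chains, rose by 0.33 (SE 0.09, adjusted p = 0.016), and Acot8, a thioesterase, by 0.19 (SE 0.07, adjusted p = 0.0486). Values of the groups overlapped for all 5.

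The gene of that list that fell was Cyp39a1, a P450 that hydroxylates an oxysterol from the brain. It ranged over 1.23 to 10.3 CPM with a median of 3.47 in Western diet livers, against 1.63 to 12.9 CPM with a median of 6.03 in chow livers (log2 fold change -0.88, SE 0.28, edgeR adjusted p = 0.0294). Abcd3, a transporter of the peroxisome membrane (0.27, adjusted p = 0.112), Cyp46a1 and Akr1c14 did not pass. Without the 4 libraries Abcd3 rose as well, by 0.45 (SE 0.13, adjusted p = 0.00769), which made 6 of 9 higher and 1 lower, where 29.9% of all genes passed. The median log2 fold change of the list was then 0.45, against 0.01 over all genes. By the same fit Slc27a2 rose by 0.77 (SE 0.10), Scp2 by 0.62 (SE 0.09), Hsd17b4 by 0.59 (SE 0.09), Acox2 by 0.45 (SE 0.10) and Acot8 by 0.19 (SE 0.07), and Cyp39a1 had a log2 fold change of -1.06 (SE 0.30). The genes of peroxisomes in this list also serve the oxidation of fatty acids, and the part of bile acid synthesis in their change was not tested.

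No regulator of the pathway passed, 0 of 11 by the edgeR test averaged over the genotypes, where 14.6% of all genes passed. Their median log2 fold change came to 0.00, and 1 of 11, Fgfr4, had an unadjusted p below 0.05, against 30.4% of all genes. Fgfr4, the receptor that carries the intestinal signal, was at 68.2 ± 11.6 CPM in Western diet livers and 78.1 ± 18.3 CPM in chow livers (log2 fold change -0.20, SE 0.10, adjusted p = 0.151). Without the 4 libraries it was lower on Western diet, 67.1 ± 11.1 CPM in 28 livers and 85.3 ± 12.2 CPM in 7 chow livers (log2 fold change -0.33, SE 0.09, adjusted p = 0.0034). Rxra, the partner of many nuclear receptors, and Nr1h3, a sensor of oxysterols, were next by p but did not pass (log2 fold changes 0.21 and 0.08, adjusted p = 0.176 and 0.273). Nr0b2 and Nr1h4 are named for their role, after their values were seen. Nr0b2, the repressor of Cyp7a1, was at 94.9 ± 48.1 CPM in Western diet livers and 106 ± 48.4 CPM in chow livers. Its receptor Nr1h4 was at 138 ± 20.7 CPM in Western diet livers and 146 ± 27.0 CPM in chow livers, and neither passed. With the 4 libraries left out, Fgfr4 was the 1 regulator of 11 that passed, where 29.9% of all genes passed. That count is no more than the background. The log2 fold changes of Rxra, Nr1h3, Nr0b2 and Nr1h4 were then 0.24, 0.08, -0.05 and -0.09.

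**Figure D3:**
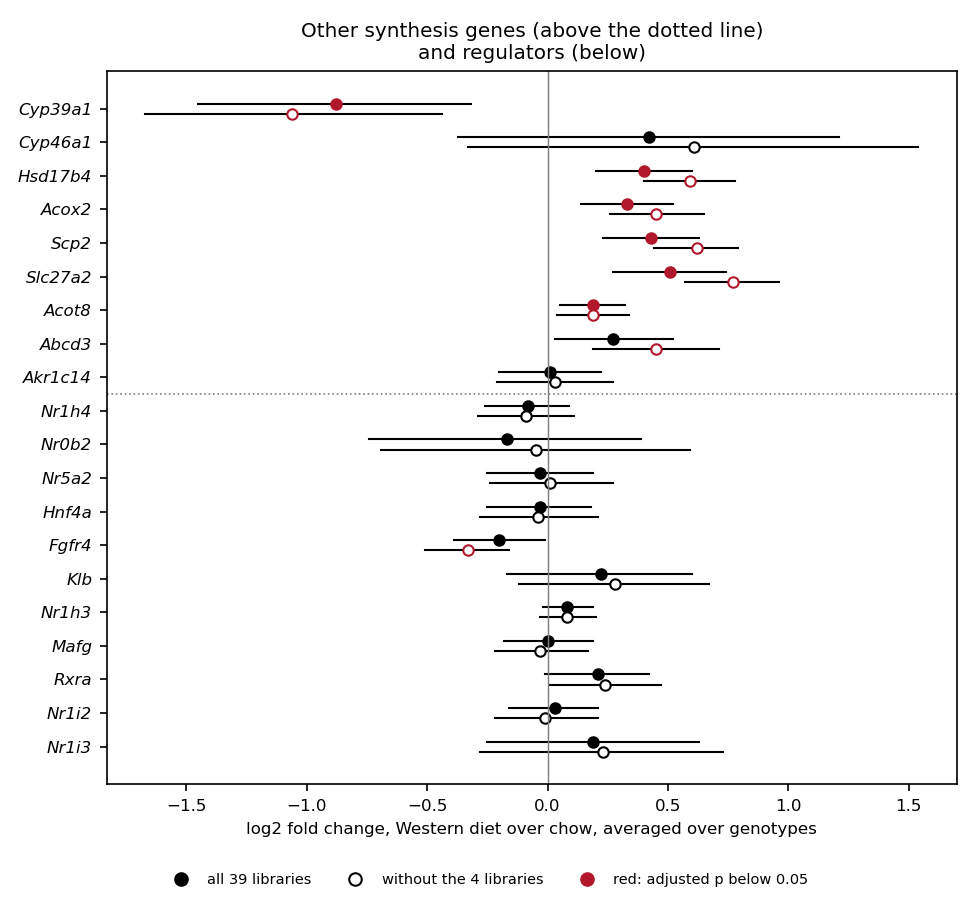
Log2 fold changes for Western diet over chow, averaged over the genotypes (horizontal axis), of the other synthesis genes above the dotted line and the regulators below it, with 95% intervals. Points are filled with all 39 libraries and open without the 4, and red where the adjusted p was below 0.05. With all libraries Slc27a2, Scp2, Hsd17b4, Acox2 and Acot8 are red above 0 and Cyp39a1 is red below it, and no regulator is red, whereas Fgfr4 is red below 0 without the 4 libraries.

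The second question is what loss of CD163 did to these genes on Western diet, and none of the 10 passed the test. The count was 0 of 10 by edgeR, DESeq2 and limma voom, where edgeR called 0.00654% of all genes. All 10 log2 fold changes were below 0, with a median of -0.13, whereas the median of all genes was 0.01 with 7119 of 15296 below 0. The genes share the same livers and some of them moved together from mouse to mouse, so the 10 signs are not independent. Cyp7a1 was above 0 (0.06) by limma voom.

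Cyp8b1 was the 1 gene of 10 with an unadjusted p below 0.05, where 5.08% of all genes had such a p. Its lowest, median and highest levels were 105, 367 and 567 CPM in knockout mice and 268, 470 and 765 CPM in wildtype mice, and 12 of 15 knockout livers were below the wildtype mean. The log2 fold change came to -0.34 (SE 0.16, edgeR adjusted p = 0.943), and it lay between -0.40 and -0.27 when each library was left out in turn, with -0.27 without knockout F, the lowest liver. In knockout livers Cyp8b1 had rho 0.604 and r 0.330 with the number in the library name (adjusted permutation p = 0.101 and 0.419). Most knockout numbers lie below all wildtype numbers on Western diet, so number and genotype can hardly be told apart. Hsd3b7 was at 6.49 ± 3.46 CPM in knockout mice and 8.90 ± 2.68 CPM in wildtype mice (log2 fold change -0.45, SE 0.25, adjusted p = 0.943). The groups overlapped, although 5 of 15 knockout livers were below all wildtype livers. Cyp7a1 averaged 35.0 ± 16.4 CPM in knockout mice and 41.6 ± 31.3 CPM in wildtype mice. Its log2 fold change came to -0.25 (SE 0.29), and -0.04 (SE 0.26) without the 4 libraries, among them wildtype A with the highest level. For Amacr and Baat the 95% intervals, 0.894 to 1.08-fold and 0.866 to 1.04-fold, leave room for small differences alone.

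On chow the genotypes could be compared in 4 knockout and 5 wildtype mice, and none of the 10 genes passed. edgeR, DESeq2 and limma voom called 0 of 10, where edgeR called 0.00654% of all genes. At an unadjusted p below 0.05 there were 0 of 10, against 2.74% of all genes. Cyp8b1 was at 521, 395, 342 and 448 CPM in knockout mice and at 274, 696, 621, 731 and 436 CPM in wildtype mice. The groups overlapped, and wildtype A, 1 of the 4 libraries, was the lowest liver of all (log2 fold change -0.37, SE 0.30, edgeR adjusted p = 1). Without the 4 libraries it was -0.59 (SE 0.32, adjusted p = 0.914), and 2 of 3 knockout livers lay below all 4 wildtype livers, while knockout A was above wildtype E. Baat was at 249, 238, 289 and 273 CPM in knockout mice and at 362, 291, 296, 284 and 286 CPM in wildtype mice (log2 fold change -0.21, SE 0.12, adjusted p = 1).

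The test of whether the diet effect differed between the genotypes was passed by none of the 10 genes. The interaction was called for 0 of 10 genes by edgeR, DESeq2 and limma voom, and edgeR called 0% of all genes. At an unadjusted p below 0.05 there were 0 of 10, against 1.86% of all genes. The difference of the log2 fold changes, knockout minus wildtype, was 0.01 (SE 0.14) for Amacr and 0.00 (SE 0.61) for Cyp7a1. The interval for Cyp7a1, 0.427 to 2.35-fold, is far wider than that for Amacr, 0.826 to 1.23-fold, so a difference in Cyp7a1 was hardly detectable with these numbers of mice.

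Among the livers on Western diet, pairs of these genes rose and fell together. The relations were computed on log2 CPM within each genotype, 45 pairs in 15 knockout and 45 in 15 wildtype livers, with permutation p values adjusted over all 90. By Spearman's rho 3 pairs passed in knockout livers, all positive, and 3 in wildtype livers, 1 positive and 2 negative. Cyp7b1 and Cyp2c70 moved together in both genotypes, with rho 0.761 and r 0.712 in knockout livers (permutation p = 0.00152 and 0.00389, adjusted 0.0261 and 0.0412). In wildtype livers rho was 0.911 and r 0.913 (permutation p = 2e-05 and 1e-05, adjusted 0.0009 for both). Without the 2 livers farthest from the median of Cyp7b1, r was 0.654 in knockout and 0.869 in wildtype livers. The livers at the ends show it. Wildtype O, C and B were lowest in both genes, with 94.1, 108 and 164 CPM of Cyp7b1 and 260, 261 and 301 CPM of Cyp2c70. Wildtype I was highest in both, with 554 and 1020 CPM.

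Cyp8b1 ran the other way in wildtype livers. Its rho was -0.821 with Cyp2c70 (permutation p = 0.00025, adjusted 0.0075), and r was -0.835 (permutation p = 4e-05, adjusted 0.0018). With Cyp7b1 rho was -0.754 (permutation p = 0.00174, adjusted 0.0261) and r was -0.733 (permutation p = 0.0017, adjusted 0.0382). Without the 2 livers farthest from the median of Cyp8b1, r was -0.805 with Cyp2c70 and -0.581 with Cyp7b1. Wildtype C, among the lowest in Cyp2c70, had the highest Cyp8b1 at 765 CPM, and wildtype G, at 869 CPM of Cyp2c70, had the lowest at 268 CPM. In knockout livers rho was -0.475 with Cyp2c70 and -0.411 with Cyp7b1, and neither passed (adjusted permutation p = 0.235 and 0.357). Whether the genotypes differ in these relations was not tested. Cyp7a1 and Cyp8b1, the enzymes of the classic route, did not move together, with rho 0.107 in knockout and 0.121 in wildtype livers.

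**Figure D4:**
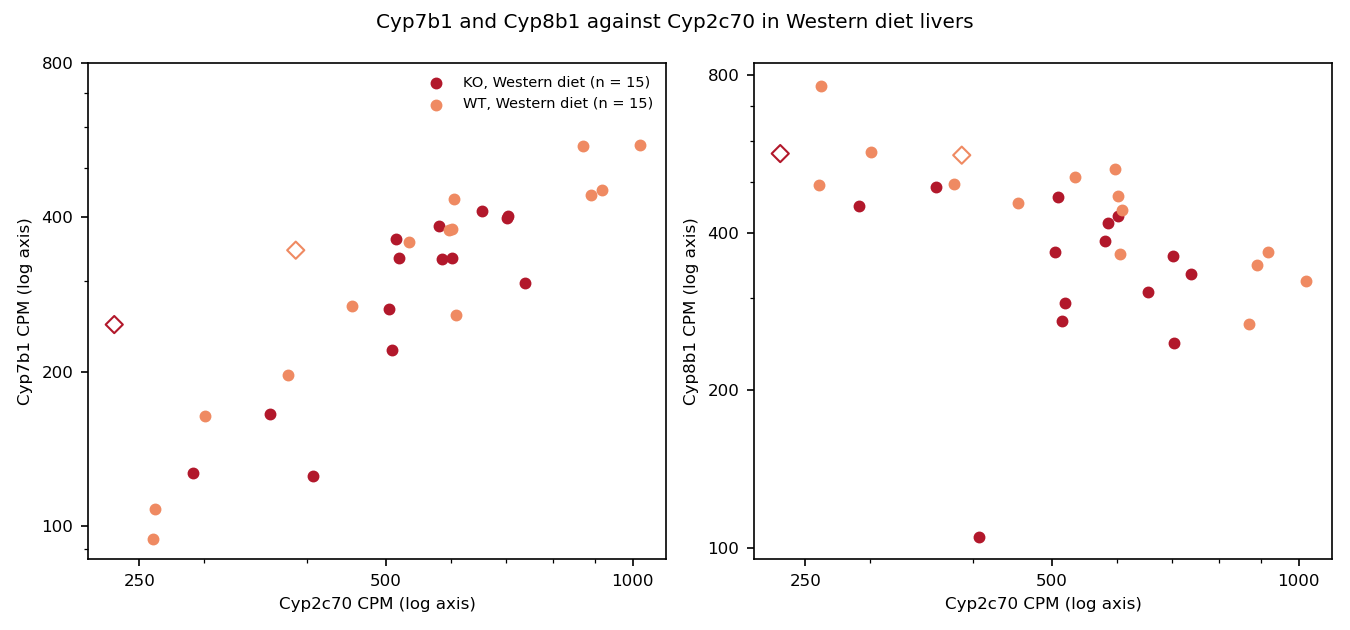
Levels in CPM of Cyp7b1 (left) and Cyp8b1 (right) against Cyp2c70, on log axes, in the 30 Western diet livers, with knockout and wildtype livers in different colours and open diamonds for the libraries that grouped with the opposite diet. Cyp7b1 and Cyp2c70 rise together in both genotypes, and Cyp8b1 falls as Cyp2c70 rises in wildtype livers (rho -0.821).

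A further 2 pairs passed in knockout livers. Akr1d1 and Slc27a5 had rho 0.889 and r 0.828 there (permutation p = 1e-05 and 6e-05, adjusted 0.0009 and 0.0018), against rho -0.150 in wildtype livers (adjusted permutation p = 0.77). The value 1e-05 is the smallest that these permutations can give. Cyp27a1 and Hsd3b7 had rho 0.761 and r 0.714 in knockout livers (permutation p = 0.00143 and 0.00265, adjusted 0.0261 and 0.0397), against rho 0.500 in wildtype livers (adjusted permutation p = 0.207). Without the 2 livers farthest from the median, r was 0.860 and 0.752. Without the library of each genotype that grouped with the opposite diet, rho of the 6 relations was 0.754, 0.921, -0.820, -0.793, 0.890 and 0.705 in the order given. Differences between the genotypes in these values were not tested. In the same knockout livers Hsd3b7 had rho 0.943 with the number in the library name, and Cyp27a1 rho 0.600 (adjusted permutation p = 0.0002 and 0.101). Hsd3b7 rested on as few as 16 counts there. The part of the library order in the relation of Cyp27a1 and Hsd3b7 was not tested.

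Lists of marker genes were set beside the 10 genes in the same way, 220 relations in all. Of 110 relations in each genotype, 7 passed by rho in knockout and 4 in wildtype livers. Genes that male mouse livers express more (Mup20, Cyp4a12a, Cyp2d9, Elovl3, Hsd3b5, C6 and Slco1a1) followed Cyp7b1 and Cyp2c70. With Cyp7b1 rho was 0.871 in knockout livers (r 0.960, adjusted permutation p = 0.00807) and 0.679 in wildtype livers (adjusted permutation p = 0.0832). With Cyp2c70 it was 0.632 in knockout livers (adjusted permutation p = 0.101) and 0.839 in wildtype livers (r 0.814, adjusted permutation p = 0.00935). Female-biased genes, of which 3 of 6 were tested, ran against both in wildtype livers, with rho -0.789 for Cyp7b1 and -0.864 for Cyp2c70 (r -0.798 and -0.851, adjusted permutation p of rho = 0.0234 and 0.00807). These female-biased genes were scarce, with a mean log2 CPM of -1.34 to 2.37 and a median of -0.245 in those livers. All mice were male.

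Genes of hepatocytes near the central vein (8 genes, among them Glul, Cyp2e1 and Oat) followed Cyp27a1 in both genotypes. The rho was 0.796 in knockout livers (r 0.818, adjusted permutation p = 0.0234) and 0.893 in wildtype livers (r 0.934, adjusted permutation p = 0.0044). Genes of the acute phase response, made by hepatocytes in inflammation, ran against Cyp27a1 and Hsd3b7 in knockout livers, with rho -0.789 and -0.739 (r -0.718 and -0.777, adjusted permutation p of rho = 0.0234 and 0.049). Their mean log2 CPM spanned 6.75 to 9.74 in knockout and 6.62 to 11.3 in wildtype livers on Western diet. In knockout livers that level was 8.19 to 9.74 in 7 of the 8 libraries with the lowest numbers, A to H, and 6.75 in the other, knockout D, against 6.82 to 7.53 in the 7 with the highest numbers, I to O. Hsd3b7 followed the library number as well (rho 0.943), and Cyp27a1 had rho 0.600 with it (r 0.352, adjusted permutation p of rho = 0.101). The part of the library order in these relations was not tested. In wildtype livers rho with Hsd3b7 was -0.707 (adjusted permutation p = 0.0667). In knockout livers the bile duct genes ran against Slc27a5 (rho -0.800, r -0.674, adjusted permutation p of rho = 0.0234). With Akr1d1 their rho was -0.696 and r -0.730 (adjusted permutation p = 0.0687 and 0.0389). Hepatocyte genes had rho 0.625 with Akr1d1 and 0.668 with Slc27a5 in these livers (adjusted permutation p = 0.108 and 0.0832). Their r was 0.719 and 0.674 (adjusted permutation p = 0.0389 and 0.0713). The mean of the clock list ran against Cyp2c70 (rho -0.750, r -0.628, adjusted permutation p of rho = 0.0433). That list averages 11 genes, Bmal1, Npas2 and Clock together with Nr1d1, Nr1d2, Dbp, Tef, Per1, Per2, Per3 and Ciart. They need not move together, so the mean gives no phase of the clock, and single genes were not tested. The cholesterol synthesis genes followed Cyp8b1 in knockout livers (rho 0.750, adjusted permutation p = 0.0436), but r was 0.492, and 0.348 without the 2 livers farthest from the median. Of the bile duct list 5 of 7 genes were tested, Cftr and Tff2 being too low. The part of these lists in the results above was not tested. No list passed with Cyp7a1.

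Hsd3b7 followed the order of the library numbers in knockout livers on Western diet. From the lowest library number to the highest, its levels in knockout livers were 1.45, 1.89, 3.33, 5.87, 2.78, 4.2, 6.5, 6.22, 7.39, 8.73, 7.53, 6.55, 13.0, 9.93 and 11.9 CPM. The rho was 0.943 and r 0.717, with a permutation p of 1e-05 for rho, the smallest that the permutations can give (adjusted over 20 relations 0.0002). For r the permutation p was 0.00359 (adjusted 0.0718). It was 0.943 without knockout M, and r was 0.889 without the 2 libraries farthest from the median number. In wildtype livers rho was -0.279 (adjusted permutation p = 0.511). No other of the 20 relations between a gene and the library number passed. What the number stands for is not given in the labels. The lowest knockout libraries rest on 22 and 16 counts of Hsd3b7. On Western diet 13 of 15 knockout numbers are below all wildtype numbers, so number and genotype can hardly be told apart. With the library number as a covariate in the fit, the log2 fold change of Hsd3b7 between knockout and wildtype livers on Western diet was -0.04 (SE 0.29, edgeR adjusted p = 0.999), against -0.45 without it.

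**Figure D5:**
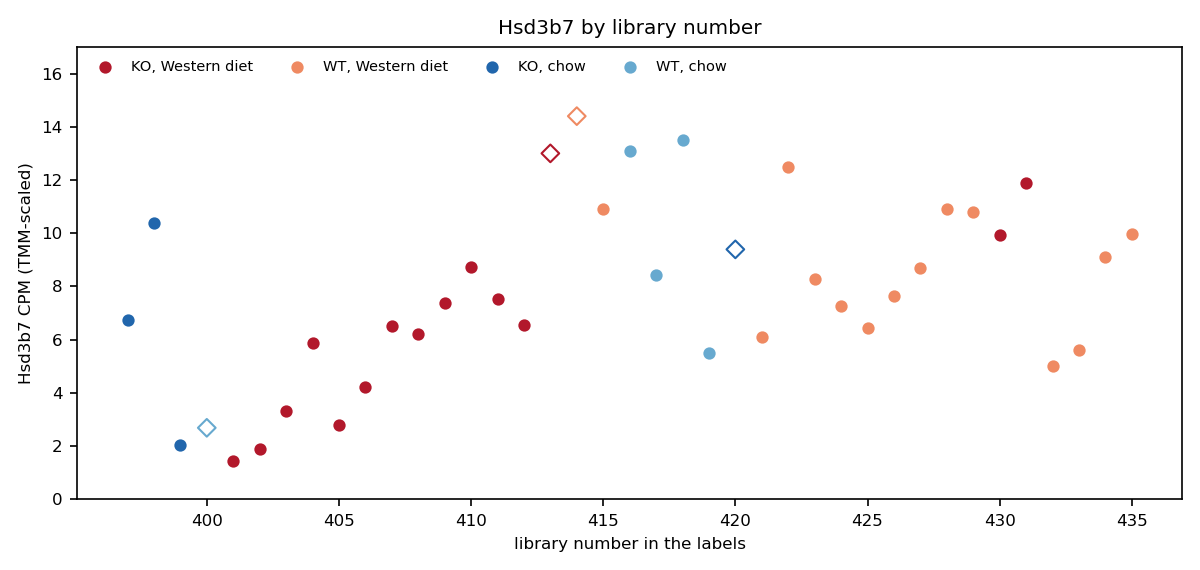
Level of Hsd3b7 in CPM (vertical axis) against the number in the library name (horizontal axis) in all 39 livers, coloured by group, with open diamonds for the 4 libraries that grouped with the opposite diet. Knockout livers on Western diet lie between 1.45 and 13.0 CPM and mostly increase with the number (rho 0.943), and wildtype livers on Western diet lie between 4.99 and 14.4 CPM.

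For each of the 10 genes, the tested genes with the most similar pattern over the 30 Western diet livers were looked up by Spearman's rho, as a description over livers that share their library and depth. Cyp7a1 had no close match, its nearest being Tal1 at 0.604. Amacr was nearest to Gna12 (0.905) and Ulk2 (0.866). Cyp27a1 was nearest to Pon1 (0.896), the paraoxonase of high-density lipoprotein, and Apoa2 (0.823), an apolipoprotein of the same particles. Cyp2c70 was nearest to C6 (0.900), a complement component that is also in the male-biased list, and Cyp7b1 to Moxd1 (0.890) and Capn8 (0.880). Mup11 and Mup16 were also near these 2 genes, at 0.862 with Cyp7b1 and 0.863 with Cyp2c70, but they belong to a family of near-identical copies that share reads. Hsd3b7 was nearest to Emc9 (0.831) and to Fdx1 (0.823), the ferredoxin that passes electrons to mitochondrial cytochromes P450 such as Cyp27a1. Cyp8b1 was nearest to Mtch1 (0.815) and Hoga1 (0.797), Baat to Prr16 (0.821), Akr1d1 to Rdx (0.748) and Slc27a5 to Retreg2 (0.887).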

How the data were processed

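Snap-frozen mouse liver was the source of RNA, NEBNext Ultra the library kit and a NovaSeq the sequencer, with paired reads, per the labels' protocols. The deposited values are raw counts per gene, made with STAR 2.7.8a, the mouse build GRCm39 and featureCounts 2.0, per the submitters' processing notes, which also name FastQC and MultiQC. The annotation release and strand setting are not given in the sources used here. Gene symbols and exon lengths came from GENCODE M21 (GRCm38), which named 52083 of 55416 genes, holding 99.4% of all counts.

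Genes were kept by filterByExpr by group (minimum count 10, minimum total 15), 15296 with all libraries and 15461 without the 4. Scaling was by TMM. All 39 libraries entered a single quasi-likelihood fit with a term per group (edgeR 4.0.16, robust, R 4.3.3). The Benjamini-Hochberg adjustment ran over every tested gene, and a gene was called below 0.05. CPM are TMM-scaled, and log2 CPM use a prior count of 2. The SE is the one implied by the F statistic. Permutation tests were 2-sided with 100000 resamples (scipy 1.17.1). Alternatives were RLE, no filter, a block for the replicate letter, a covariate for the library number, a fit of the compared groups alone, DESeq2 1.42.0, limma 3.58.1 (voom with sample quality weights), each library left out, and all 4 left out. The fit was also run on simulated counts, drawn with the spread estimated from these data and with no library set with the opposite diet. That run cannot show how the fit handles such libraries.

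The members and gene lists were chosen with earlier results of these data known. All 10 members are described, with every gene of the 2 context lists that passed, the 3 with the smallest p, and the 3 genes nearest to each member by rho, some of which are named. Replicate letters are not stated to pair mice, so no block was used. The labels call the genotypes littermates but do not give which mice shared a litter or cage, so neither entered the fit and p values measure the spread between these mice.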

Additional observations from a re-analysis of the deposited data

Results flagged for a closer look

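Among the 20 sets of 4 or 5 chow livers, 1 set for each gene and genotype, 2 held a liver far from the rest by Dixon's criterion, which chance alone gives in about 1 of 20 sets. Cyp2c70 was at 618 CPM in knockout chow C, where the nearest of the other 3 was at 420 CPM and the lowest at 385 CPM, so the gap was 0.850 of the range against a critical value of 0.829. Baat was at 362 CPM in wildtype chow A, where the nearest of the other 4 was at 296 CPM and the lowest at 284 CPM, so the gap was 0.846 of the range against 0.710. Wildtype chow A is 1 of the 4 libraries that grouped with the opposite diet.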

How the results depend on the processing

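The count of genes called was the same under RLE scaling, no filter on low counts, DESeq2, the library number as a covariate and, where it could be fitted, only the groups compared. With limma voom 1 gene was called for diet in wildtype mice, 1 in knockout mice and 3 averaged over the genotypes, and without the 4 libraries likewise 1, 1 and 3. The shares of all genes called there were 6.83%, 5.36% and 23.9% with limma voom, and 8.66%, 17.2% and 29.9% without the 4 libraries. When each library was left out in turn, the count of the 10 genes called was 0 to 1 in each of these comparisons. It was 0 to 0 for both genotype effects and the interaction. The replicate letter as a block called 1 of the 10 averaged over the genotypes and 0 in the other comparisons, and 2085 against 2234 of all genes averaged over the genotypes and 50 against 212 for diet in wildtype mice. Libraries of the same letter did not deviate together (mean correlation -0.0104 over 15 Western diet pairs), so the letters were not used as pairs.

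Over all genes the diet effect in wildtype mice was called for 0 genes with the library number, 44 without a filter and 515 by DESeq2. In knockout mice the count was 1 gene, 230 by DESeq2 and 820 by limma voom. Averaged over the genotypes it was 1262 without a filter and 3653 by limma voom, and with 1 library left out it lay between 5.33% of genes without knockout chow B and 22.6% (3505 genes) without knockout chow D. Such counts were 0 to 556 for diet in wildtype mice, without wildtype chow B and A, and 0 to 1408 for diet in knockout mice, the highest without knockout chow D.

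Values near 0 changed sign, none of them past the threshold, and the cause was not tested. Baat for diet in knockout mice was 0.00 with RLE, DESeq2 and limma voom, 0.01 without a filter, 0.08 with the block, 0.02 with the library number and 0.05 without the 4 libraries, and averaged 0.01 with the block. Hsd3b7 for diet in wildtype mice was -0.12 with the block and -0.25 with the library number and without the 4 libraries. Akr1d1 for diet in knockout mice was 0.10 with the block and 0.02 without the 4 libraries, and averaged 0.23 with the block, 0.04 with the library number and 0.02 without the 4. Between the genotypes on chow, Cyp27a1 was -0.02 with the block, -0.01 with limma voom and -0.05 without the 4, Slc27a5 was 0.01 with the block, Hsd3b7 was 0.13 with the library number, and Cyp7b1 was 0.03 and Akr1d1 -0.10 without the 4. On Western diet Cyp7a1 was 0.06 with limma voom. The interaction was 0.00 for Cyp8b1 with the block and 0.00 for Amacr with limma voom, and without the 4 libraries -0.20 for Cyp7b1, 0.18 for Hsd3b7 and 0.07 for Slc27a5. When 1 library was left out, 82 of the fold changes changed sign, 2255 kept direction and call, 2 gained the call and 1 lost it.

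With each library left out in turn, values that crossed 0 had these ranges, none of them called. For diet in wildtype mice, Hsd3b7 was -0.18 to 0.26. For diet in knockout mice, Hsd3b7 was -0.44 to 0.07, Akr1d1 -0.22 to 0.03, Baat -0.05 to 0.05 and Slc27a5 -0.05 to 0.21. Averaged over the genotypes, Hsd3b7 was -0.20 to 0.06 and Akr1d1 -0.07 to 0.07. Between the genotypes on chow, Cyp7a1 was -0.58 to 0.06, Cyp27a1 -0.06 to 0.10, Cyp2c70 -0.12 to 0.22, Hsd3b7 -0.49 to 0.02, Akr1d1 -0.05 to 0.21, Amacr -0.16 to 0.06 and Slc27a5 -0.14 to 0.12. For the interaction, Cyp7a1 was -0.31 to 0.33, Cyp8b1 -0.10 to 0.20, Cyp7b1 -0.12 to 0.24, Hsd3b7 -0.48 to 0.04, Amacr -0.09 to 0.13 and Slc27a5 -0.25 to 0.00.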
